A study of Mus musculus with 10 samples.

Results

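The genes described here are 9 that STAT5 or related cytokine signals are known to control and that feed back on such signals or carry them further. They are Cish, Socs1, Socs2 and Socs3 of the SOCS family, the kinase genes Pim1, Pim2 and Pim3, the repressor gene Bcl6 and the cytokine gene Osm. They were chosen by name: every probe set whose platform symbol was one of these names was taken, which gave 20 probe sets of 34945 assigned to a single gene, and 9 genes of 18193. The choice of names was made with earlier results of these data known. All 9 genes had at least 1 probe set above background in some group.

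The study measured RNA of natural killer (NK) cells and of whole spleen cells from wild type C57Bl/6 mice on Affymetrix MOE430_2 arrays. NK cells, innate lymphocytes that lyse virus-infected or tumour cells, were sorted here from spleen as NK1.1+CD3- cells. Resting NK cells (3 arrays) were lysed right after the sort, and IL-15 NK cells (3 arrays) were first kept for 24 h with 100 ng/mL recombinant mouse IL-15. Bulk resting splenocytes gave 4 arrays, which per the design text are 2 biological samples with 2 chips each. No NK cells cultured without IL-15 were analysed here, so an effect of IL-15 and an effect of 24 h in culture cannot be told apart. How many mice gave each sample is not stated in the sources used here.

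IL-15 binds a receptor whose beta and common gamma chains carry the kinases JAK1 and JAK3, and these phosphorylate STAT5, which moves to the nucleus and switches on target genes. CIS, the product of Cish, and the SOCS proteins bind phosphorylated receptors or kinases through an SH2 domain. Their SOCS box recruits a ubiquitin ligase, so the signal is damped. In NK cells CIS is known as a brake on the response to IL-15. PIM kinases are serine/threonine kinases that are active once made, so their amount follows transcription, and they support growth and survival. BCL6 is a repressor that can bind DNA sites like those of STAT proteins and antagonises STAT5 in several lymphocytes. Oncostatin M, the product of Osm, is a secreted cytokine of the IL-6 family.

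STAT5 binds DNA at copies of TTCNNNGAA, where N is any base, and this motif reads the same on both strands. It was searched in the RefSeq windows from 250 bases before to 50 bases after each transcription start (build GRCm38.p6), which the table held for 7 of the 9 members, with 2 starts each for Bcl6 and Pim1. In that build Cish lies at chr9:107296659-107302784, Socs3 at chr11:117966079-117970336 and Bcl6 at chr16:23965050-23988866. Socs1 lies at chr16:10783808-10785536, Socs2 at chr10:95383903-95417321 and Osm at chr11:4236785-4241026. Pim1 lies at chr17:29490785-29496111, Pim2 at chrX:7878306-7883432 and Pim3 at chr15:88862194-88865726. Of all 32851 windows, 8.3% held at least 1 copy, 0.457% at least 2 and 0.0335% at least 3. Cish had 2 copies, beginning at the first and at the 12th transcribed base. Counted from the start, with minus for bases before it, Socs3 had 1 copy at -154. The upstream Bcl6 start had 1 copy at -118, and the downstream start had 3, at -168, -122 and -88. The windows of Socs1, Pim2, Pim3 and both starts of Pim1 held none, which says only that these letters are not in those windows. The 2 members with more than 1 copy, Cish and Bcl6, both passed the test after IL-15, in opposite directions. Socs3, with 1 copy, also passed. Of the members with no copy in their windows, Socs1, Pim1 and Pim2 passed too and Pim3 did not. All stretches that hold the motif in these windows are shown. Capitals mark the motif, each is written 5′ to 3′ on the strand of the gene, and the data do not test binding there.
Cish, chr9:107296654-107296683, plus strand: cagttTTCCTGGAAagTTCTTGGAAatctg
Socs3, chr11:117969502-117969530, minus strand: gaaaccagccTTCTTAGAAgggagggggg
Bcl6, upstream start, chr16:23988952-23988980, minus strand: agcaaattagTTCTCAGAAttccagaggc
Bcl6, downstream start, chr16:23981353-23981461, minus strand: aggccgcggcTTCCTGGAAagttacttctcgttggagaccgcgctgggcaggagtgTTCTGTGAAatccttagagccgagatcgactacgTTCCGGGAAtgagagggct

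Signals are linear array units as the authors deposited them, scaled to a common mean per array. A floor of 179.9 units, below which a signal was treated as background, left 51.1% to 62.4% of probe sets above it. All 12 NK markers tested were higher in resting NK cells than in splenocytes, among them Ncr1, Klrd1 and Eomes. The resting arrays differed from one another. Relative to splenocytes, the median signal of 12 B-cell markers was 12.8% on resting replicate 1, 10.7% on replicate 2, 1.07% on replicate 3 and 0.301% to 0.955% in IL-15 NK cells. The 24 immediate-early genes, which respond within minutes to stimuli, deviated from the resting mean by 0.50, 0.30 and -0.80 on the log2 scale on the same 3 arrays. The 13 macrophage and monocyte markers ran the other way, with summed signals of 8883, 22137 and 32341 units. The ratio of 3-prime to 5-prime signal of control genes is a sign of RNA or labelling quality. For Gapdh it ran from 5.88 to 9.54 in resting NK cells and from 2.90 to 3.81 after IL-15, and reached at most 1.39 in splenocytes. For Actb it ran from 2.27 to 6.51 in resting NK cells, from 1.28 to 1.49 after IL-15 and from 1.34 to 1.59 in splenocytes. The part of this quality in the differences between groups was not tested. Several results that rest on the resting arrays, though not all, are therefore given with all 3 and with replicate 3 as the only resting array. This setting was chosen after the data were seen. It has no spread among resting arrays: its error comes from the other groups alone. The lone array is assumed to vary as they do, so its p-values rest on that assumption. For Socs3 and Pim3 the 3 resting arrays varied more than the IL-15 NK arrays (SD 1.32 against 0.30 and 0.85 against 0.09 in log2 signal).

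The first comparison asked which of these genes changed when resting NK cells were activated with IL-15. Of the 9 members 3 rose, Cish, Socs1 and Pim2, 3 fell, Socs3, Pim1 and Bcl6, and 3 did not pass, Socs2, Pim3 and Osm (limma, Benjamini-Hochberg adjusted p under 0.05 over 11433 genes). Of all genes tested 26.3% passed, 14.2% upward and 12.1% downward. The groups did not overlap for 7 of the 9 members, against 42.2% of all genes tested. For Socs1 this followed from the filter, since no resting array was above the floor. The median log2 difference of the members was 0.11, that of all genes tested -0.09. With resting replicate 3 alone, and its spread assumed from the IL-15 NK arrays, 5 members passed, 3 upward and 2 downward; Socs3 did not.

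**Figure D1:**
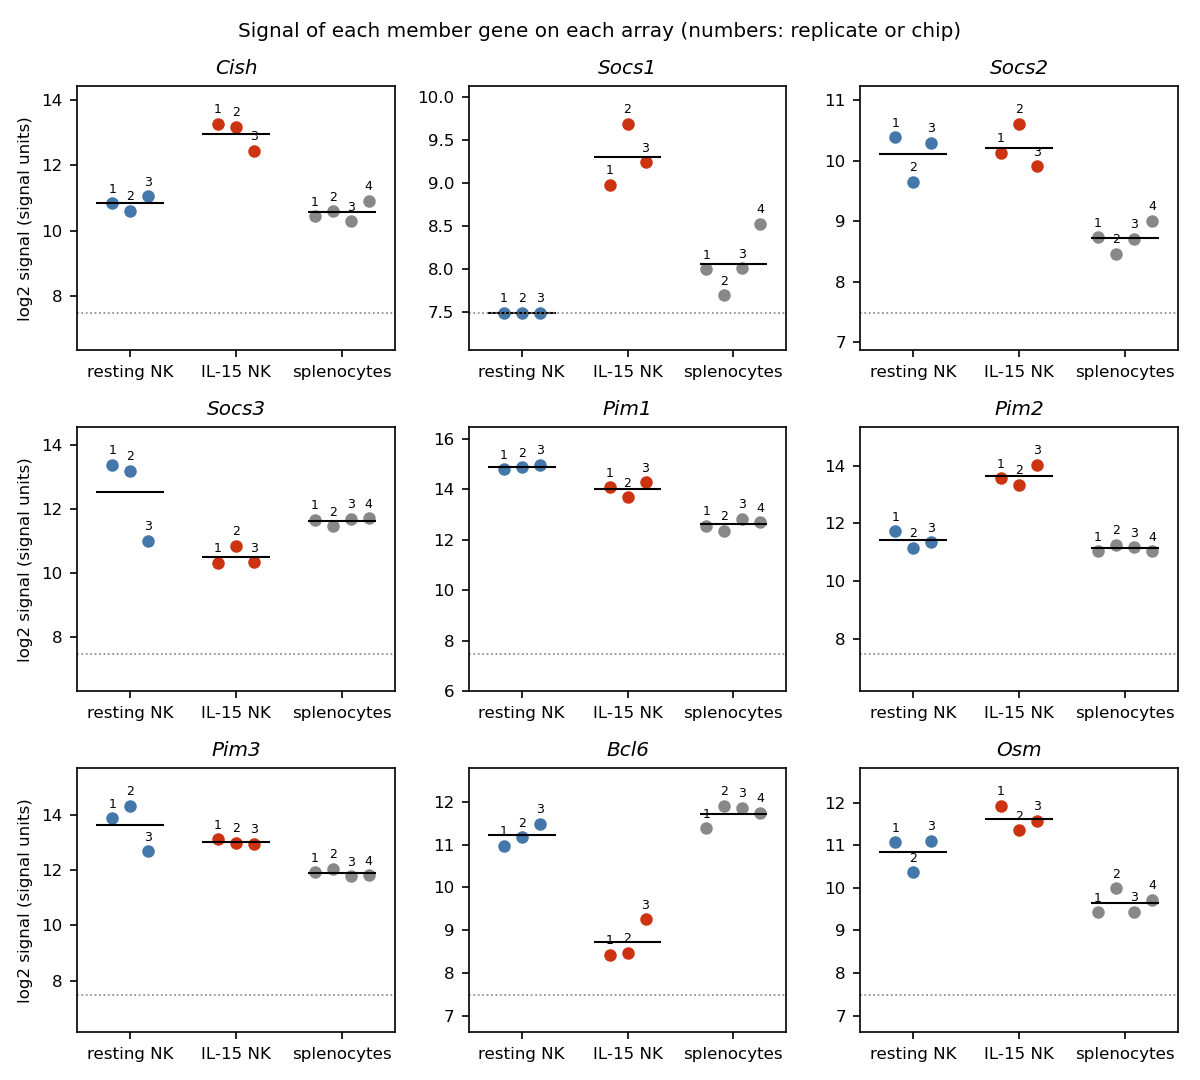
Log2 signal of each member's brightest probe set on each array, in signal units, for 3 resting NK, 3 IL-15 NK and 4 splenocyte arrays; points are arrays with their replicate or chip number, bars are group means, and the dotted line is the floor (scales differ between panels). Cish and Pim2 stand apart in IL-15 NK cells, Bcl6 is lowest there, and Socs3 and Pim3 are spread out among the resting arrays.

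Among the SOCS family, Cish (probe set 1448724_at) showed signals of 1842, 1571 and 2129 units on resting replicates 1, 2 and 3 and of 9937, 9300.5 and 5598 on IL-15 NK replicates 1, 2 and 3. Every IL-15 NK array was above every resting array, with replicate 3 the lowest of the stimulated arrays. Mean log2 signals were 10.84 ± 0.22 and 12.97 ± 0.45 (SD, n = 3 each), a 4.38-fold rise (log2 difference 2.13 ± 0.25 SE, limma adjusted p = 0.00028). With resting replicate 3 alone the log2 difference was 1.92 (limma adjusted p = 0.0019).

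Socs1 (1450446_a_at) encodes a SOCS protein that can inhibit JAK kinases directly. Its signals were 29, 14.1 and 103.8 units on the resting arrays, all below the floor, and 504.9, 823.8 and 604.6 on the IL-15 NK arrays. No resting array thus gave a signal above background and every IL-15 NK array did. The filter needed 3 arrays above the floor, so Socs1 could enter only with all 3 IL-15 NK arrays above it. Its lack of overlap was thus fixed by the filter. With resting values set to the floor the rise was at least 3.51-fold (log2 difference at least 1.81 ± 0.28 SE, limma adjusted p = 0.0012), and the error takes no spread from the resting group. With a floor at the 60th percentile the IL-15 NK arrays lay so near it that the difference was 0.33 and did not pass (limma adjusted p = 0.24).

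Socs2 is best known as a brake on growth hormone signals. Its brightest probe set, 1418507_s_at, gave 1335, 804.5 and 1257 units on the resting and 1120, 1561 and 961.2 units on the IL-15 NK arrays. The groups overlapped, and the log2 difference of 0.11 (95% interval -0.57 to 0.79) did not pass (limma adjusted p = 0.84). None of its 4 probe sets tested passed, with differences of -0.06 to 0.60, and the other 2 of its 6 lay below the floor on most arrays.

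Socs3, which encodes an inhibitor of signals through the IL-6 receptor subunit gp130, moved the other way from Cish. The signals of its brightest probe set, 1455899_x_at, were 10651, 9352 and 2056 units on resting replicates 1, 2 and 3 and 1289, 1855 and 1305 on the IL-15 NK arrays. The first 2 resting arrays were far above all the others, and the third lay just above the highest IL-15 NK array. Means were 12.53 ± 1.32 and 10.51 ± 0.30 (log2, SD, n = 3 each), and the signal fell by 2.01 (limma adjusted p = 0.018). With resting replicate 3 alone the difference was -0.49 (limma adjusted p = 0.35, with the error from the IL-15 NK arrays only), and without resting replicate 1 it was -1.59 (limma adjusted p = 0.057). It also missed the threshold without IL-15 NK replicate 1 or 3 (limma adjusted p = 0.056 for each) and without the filter on dim genes (limma adjusted p = 0.20). Resting replicates 1 and 2 were the arrays with more B-cell and immediate-early signal; their part in the difference was not tested. For this probe set the highest splenocyte chip gave 3340 units, below both of these arrays. The Socs3 probe set 1456212_x_at ran the same way, with 3451 units on its highest splenocyte chip against 5395 and 3900 on resting replicates 1 and 2. The Socs3 probe set 1416576_at did not: its highest splenocyte chip gave 2619 units, above the 2275 and 1357 of resting replicates 1 and 2.

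All 3 Socs3 probe sets fell by group means. They read the same gene on the same arrays, so they are not separate support. For 1416576_at the groups overlapped, with 427.8 units on resting replicate 3 and 436.4 on IL-15 NK replicate 2. The differences were -2.01 and -1.88 for 1455899_x_at and 1456212_x_at, whose _x_at is a suffix that marks probes which may match other transcripts too, and, as a bound, -1.81 or beyond for 1416576_at, which was below the floor on 1 IL-15 NK array (limma adjusted p = 0.017, 0.0062 and 0.041 over 20980 probe sets). Of the 20 member probe sets 16 were tested singly, 3 rose and 5 fell, while of all probe sets 23.9% passed, 12.2% upward and 11.6% downward.

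The PIM kinases did not move together. Pim2 (1417216_at) gave 3421, 2296 and 2623 units on the resting and 12124, 10363 and 16743 units on the IL-15 NK arrays. Each stimulated array was above each resting array, and the rise was 4.67-fold (log2 difference 2.22 ± 0.23 SE, n = 3 per group, limma adjusted p = 0.00014). With resting replicate 3 alone it was 2.29 (limma adjusted p = 0.00025).

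Pim1 (1435458_at) gave 28423, 30193 and 32182 units on the resting arrays and 17366.5, 13289 and 19997 on the IL-15 NK arrays. The resting arrays were close to one another and all above the stimulated ones. Means were 14.88 ± 0.09 and 14.02 ± 0.30 (log2, SD, n = 3 each), so that Pim1 fell by 0.86 (limma adjusted p = 0.0078), and by 0.95 with resting replicate 3 alone (limma adjusted p = 0.020). Its second probe set, 1423006_at, dim at 228.8 to 565.3 units in NK cells, had a difference of -0.43 that missed the threshold (limma adjusted p = 0.38). The call on Pim1 was lost when both probe sets were averaged (log2 difference -0.65, limma adjusted p = 0.053) and without the filter on dim genes (limma adjusted p = 0.051).

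Pim3 (1437100_x_at) gave 15213, 20700.2 and 6601 units on resting replicates 1, 2 and 3 and 8946, 8173 and 7976 on the IL-15 NK arrays. As with Socs3, resting replicates 1 and 2 were high, but here replicate 3 was below every IL-15 NK array; replicates 1 and 2 carried more B-cell and immediate-early signal, whose part was not tested. The difference of -0.61 (95% interval -1.38 to 0.16) did not pass (limma adjusted p = 0.22). It was -1.09 without resting replicate 3, which passed (limma adjusted p = 0.0044), and 0.34 with resting replicate 3 alone, which did not (limma adjusted p = 0.35). A second probe set, 1451069_at, at 580.5 to 1093 units in resting NK cells, differed by 0.04 (limma adjusted p = 0.95).

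Bcl6 (1421818_at) gave 2011, 2315 and 2881 units on resting replicates 1, 2 and 3 and 343.6, 355.5 and 611 on the IL-15 NK arrays. All resting arrays were well above all IL-15 NK arrays. Means were 11.21 ± 0.26 and 8.72 ± 0.47 (log2, SD, n = 3 each), a 5.64-fold fall (limma adjusted p = 0.00037). B-cell markers fell too, 6 of 8 tested and none rising, with summed signals over all 12 of 12466 to 41129 units on resting and 4700 to 6674 on IL-15 NK arrays; Cd79a and Ms4a1 were above the floor on too few NK arrays to be tested. Bcl6 was highest and the B-cell signal lowest on resting replicate 3, and the difference with that array alone was -2.77 (limma adjusted p = 0.0011, with the error from the IL-15 NK arrays only). Macrophage markers, which were brightest on replicate 3, also fell, 6 of 8 tested with none rising, at summed signals of 8883 to 32341 units on resting and 2487 to 3457 on IL-15 NK arrays; the part of either marker list in the Bcl6 difference was not tested. The other Bcl6 probe set, 1450381_a_at, was above the floor on 2 of 3 resting and no IL-15 NK arrays and was not tested in this comparison.

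Osm (1438767_at) gave 2149, 1319 and 2204 units on the resting and 3892, 2607 and 3044 on the IL-15 NK arrays. The groups did not overlap, but the log2 difference of 0.77 (95% interval 0.17 to 1.37) did not pass (limma adjusted p = 0.060), and under 16 other settings the adjusted p ran from 0.022 to 0.28. Of the related cytokines and receptors, Clcf1, Il6st, Ctf1 and Lif were tested and none passed (limma adjusted p = 0.16 to 0.92); the smallest unadjusted p was 0.063. Osmr, which encodes the oncostatin M receptor chain, Lifr, Il6, Il11 and Il31ra were above the floor on too few NK arrays to be tested.

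**Figure D2:**
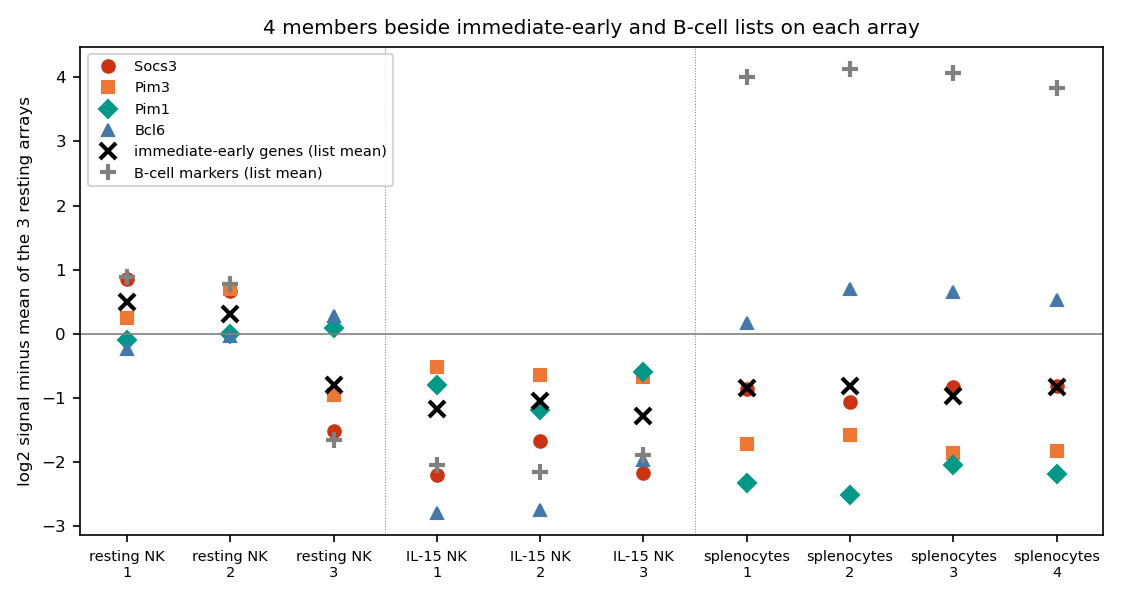
Log2 signal of Socs3, Pim3, Pim1 and Bcl6, and mean of the 24 immediate-early genes and 12 B-cell markers, on each of the 10 arrays as the difference from the mean of the 3 resting NK arrays. Socs3 and Pim3 lie below that mean on resting replicate 3, as the immediate-early and B-cell lists do (-0.80 and -1.66), while Pim1 and Bcl6 lie slightly above it.

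Few other brakes on the pathway passed the test. For this and the following lists, the share of all genes that passed was 26.3%, with 14.2% upward and 12.1% downward. The lists were chosen with earlier results of these data known. Their counts beside this share are therefore a description and not a test of the lists. Of 19 genes for further SOCS proteins, subunits of the SOCS-box ubiquitin ligase, tyrosine phosphatases, PIAS proteins and adaptors, 2 rose, none fell and 17 did not pass, and the median difference was -0.21 beside -0.09 over all genes tested. Those that rose were Ptpn6, which encodes the phosphatase SHP-1, by 1.01 and Eloc, elongin C of the SOCS-box ligase, by 0.81 in log2 units (limma adjusted p = 0.022 and 0.0051). The ligase scaffold gene Cul5 differed by -0.04 and Socs4, Socs5, Socs6 and Socs7 by -0.45 to 0.39, none of which passed. The split of this list was not stable: 1 rose and 3 fell with probe sets averaged, 2 rose and 2 fell with 1 variance for all 3 groups, and 1 rose and none fell without resting replicate 1.

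Upstream, 1 of 14 genes of the receptor, the JAK kinases, the STAT factors and their adaptors rose and 3 fell, with a median of -0.11. Il2rb, the beta chain of the IL-15 receptor, rose by 0.88, whereas Tyk2 and Jak2, kinases of other cytokine receptors, fell by 1.28 and 0.86 and Stat4, which transmits IL-12 signals, fell by 0.77 (limma adjusted p = 0.0090, 0.00076, 0.016 and 0.0062). Stat5a and Stat5b differed by 0.35 and -0.22, Jak1 and Jak3 by -0.34 and -0.68, and none of the 4 passed (limma adjusted p = 0.14 to 0.62).

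Of 20 further genes linked to STAT5, 8 rose, 2 fell and 10 did not pass, with a median of 0.55. The 5 largest differences were all upward: Cdkn1a, a cell cycle inhibitor, by 2.27, Tnfrsf9, the costimulatory receptor 4-1BB, by 2.23, Cdk6, a kinase of G1 phase, by 2.10, Myc by 1.41 and Gzmb, granzyme B, by 1.33 in log2 units (limma adjusted p = 0.00011 to 0.0020). Mcl1 and Il18r1 fell by 0.83 and 0.63 (limma adjusted p = 0.017 and 0.022). Without IL-15 NK replicate 3 the list had 6 genes up and none down, and without IL-15 NK replicate 1 it had 7 up and none down.

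Genes for substrates of the PIM kinases moved both ways, 6 of 14 up, 4 down and 4 not passing, with a median of 0.19. Besides Cdkn1a and Myc, those with the largest differences were the cell cycle phosphatase genes Cdc25a, up by 1.80, and Cdc25c, up by at least 1.47 from the floor on all resting arrays, and Foxo1, a transcription factor of quiescence, down by 1.36 (limma adjusted p = 0.00053, 0.0025 and 0.0015). Cdc25c, with no resting array above the floor, could enter only with all 3 IL-15 NK arrays above it. Without IL-15 NK replicate 3, 4 genes rose and 2 fell. These are RNA levels and say nothing of phosphorylation.

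Of 11 genes that BCL6 is known to repress, 1 rose, 4 fell and 6 did not pass, with a median of -0.16. Cdkn1a rose; Prdm1, which encodes Blimp-1, fell by 1.17, Ccl3 by 0.81, Cdkn1b by 0.78, and Cxcl10 by at least 1.19, down to the floor on every IL-15 NK array (limma adjusted p = 0.0018, 0.0059, 0.032, 0.033 and 0.0080). Cxcl10, with no IL-15 NK array above the floor, could enter only with all 3 resting arrays above it. Only 1 rose and 1 fell without resting replicate 1, and 1 rose and 2 fell without IL-15 NK replicate 1 or 3. With resting replicate 3 alone, 3 rose and 2 fell. Of 8 corepressor genes Hdac3 rose by 0.65 and Bcorl1 fell by 0.91 (limma adjusted p = 0.031 and 0.045), with a median of -0.02. Both of these calls were lost without resting replicate 1, without any single IL-15 NK replicate and with resting replicate 3 alone. Among 24 immediate-early genes 13 fell, 3 rose and 8 did not pass, with a median of -1.07. Their log2 differences included -5.12 for Fos and -3.58 for Klf4 (limma adjusted p = 1.5e-05 and 0.00031). Without the filter on dim genes, fewer genes of these lists passed: 1 brake, 2 receptor and JAK-STAT genes, 5 genes linked to STAT5, 5 PIM substrates, 1 gene repressed by BCL6, 1 corepressor and 3 immediate-early genes. With resting replicate 3 alone, 10 immediate-early genes passed, 4 upward and 6 downward.

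The second comparison set resting NK cells against bulk splenocytes, a mixture of B cells, T cells, myeloid and other cells, and asked which members mark NK cells at rest. NK samples were amplified in 2 cycles and splenocytes in 1 cycle, so cell type and amplification cannot be told apart here. In a bulk sample, fewer cells of a type and less RNA per cell cannot be told apart either. Of the 9 members, 4 were higher in resting NK cells, Socs2, Pim1, Pim3 and Osm, none was lower and 5 did not pass, while 38.6% of 12938 genes tested passed with 17.1% higher and 21.5% lower. The groups did not overlap for 5 of the 9, against 49.7% of all genes. The 5 include Socs1, which did not pass and was lower in resting NK cells. With no resting array above the floor, Socs1 could enter only through at least 3 splenocyte chips, so its lack of overlap follows largely from the filter.

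Pim1 had the largest of these differences. Splenocyte chips gave 6020, 5288, 7357 and 6676 units, all far below the 28423 to 32182 of resting NK cells, a 4.81-fold difference (log2 difference 2.27 ± 0.20 SE, n = 3 arrays and 2 samples, limma adjusted p = 5.2e-05). Its second probe set pointed the other way, with 819, 798.3, 1141 and 1097 units on splenocytes and 302, 565.3 and 338.8 on resting NK arrays (log2 difference -1.30, limma adjusted p = 0.018 over all probe sets). The average of both gave 0.48 and did not pass (limma adjusted p = 0.13), so the direction for Pim1 depends on the probe set. The annotation pairs the dimmer probe set with a RefSeq transcript of Pim1 and names none for the brighter.

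Socs2 gave 425.9, 352.6, 419.4 and 514.8 units on splenocytes, below every NK array of either condition, and was 2.60-fold higher in resting NK cells (limma adjusted p = 0.0095). A further Socs2 probe set, 1446085_at, was below the floor on all 4 splenocyte chips and at 430.5 to 552.4 units on resting NK arrays, at least 1.47 higher in log2 units (limma adjusted p = 0.0010). That probe set could enter only with all 3 resting NK arrays above the floor. The remaining 2 tested differed by 0.67 and -0.13, and neither passed (limma adjusted p = 0.27 and 0.79).

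Pim3 gave 3875, 4263, 3541 and 3618 units on splenocytes and was 3.35-fold higher in resting NK cells (limma adjusted p = 0.010), or higher by 0.79 on the log2 scale with resting replicate 3 alone (limma adjusted p = 0.019). Osm gave 686.4, 1019.6, 693.9 and 845 units on splenocytes and was 2.30-fold higher in resting NK cells (limma adjusted p = 0.013). All resting NK arrays were above all splenocyte chips for both genes. For the second Pim3 probe set the difference was 0.49, short of the threshold (limma adjusted p = 0.37). Of the 20 member probe sets 17 were tested singly, 5 were higher and 2 lower, beside 38.1% of all probe sets passing, 15% higher and 23.1% lower.

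Cish, at 1259 to 1936 units on splenocytes, and Pim2, at 2109 to 2458, overlapped the resting NK arrays, with log2 differences of 0.27 (95% interval -0.37 to 0.92) and 0.29 (-0.27 to 0.85) that missed the threshold (limma adjusted p = 0.48 and 0.39). Bcl6, at 2667 to 3844 units on splenocytes, differed by -0.51 (limma adjusted p = 0.23); its dimmer probe set, above the floor on 2 of 3 resting NK arrays, was at least 1.76 lower in resting NK cells (limma adjusted p = 0.011). Socs1, at 207 to 368.1 units on splenocytes, was above the floor on all 4 chips and on no resting NK array, but the log2 difference of at least 0.56 in favour of splenocytes did not pass (limma adjusted p = 0.11). With a floor at the 20th percentile it was 1.98 lower in resting NK cells and passed (limma adjusted p = 0.013). Socs3, by its brightest probe set, differed by 0.89 with all resting arrays (limma adjusted p = 0.30). It differed by 1.65 without resting replicate 3, which passed (limma adjusted p = 0.0014), and by -0.63 with that array alone. The other Socs3 probe sets, 1416576_at and 1456212_x_at, differed by -0.99 and 0.01 with all resting arrays. Neither passed (limma adjusted p = 0.29 and 0.98 over all probe sets), and the direction for Socs3 depends on the probe set.

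**Figure D3:**
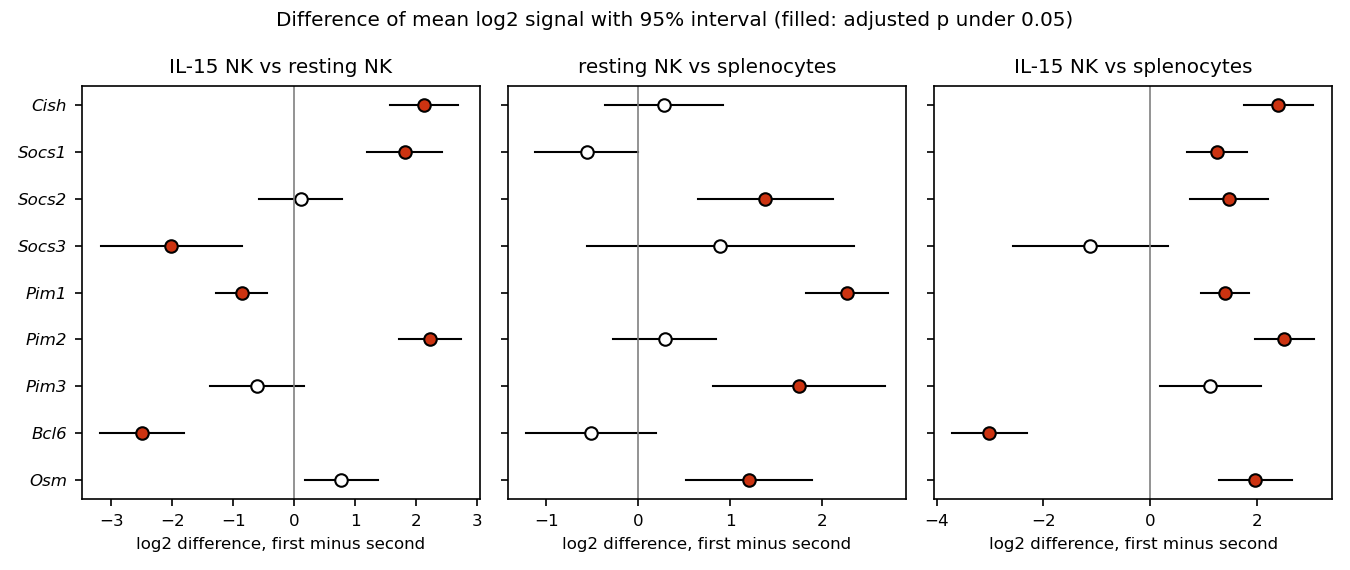
Difference of mean log2 signal of each member (first group minus second) in the 3 comparisons, with its 95% interval from limma; filled points passed at an adjusted p under 0.05, and the horizontal scales differ. Socs1 in resting NK cells is at the floor, so its first 2 differences are bounds. Cish and Pim2 passed in both comparisons with IL-15 NK cells and did not pass in resting NK cells against splenocytes.

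The third comparison set IL-15 NK cells against splenocytes. It shares its samples with both others and is given beside them as values, not as a separate replication. Of the 9 members, 6 were higher in IL-15 NK cells, Cish, Socs1, Socs2, Pim1, Pim2 and Osm, Bcl6 was lower, and Socs3 and Pim3 did not pass, while 44.3% of 12465 genes passed, with 20.8% higher and 23.5% lower. The groups were free of overlap for all 9 members, against 57.6% of all genes. The error of this fit comes from all 3 groups, so it includes the resting arrays, whose log2 SD was 1.32 for Socs3 and 0.85 for Pim3. In IL-15 NK cells and splenocytes the SD was 0.30 and 0.12 for Socs3 and 0.09 and 0.12 for Pim3. Under 18 other settings Socs3 passed in 3 and Pim3 in 6. Pim2 was 5.71-fold, Cish 5.30-fold and Osm 3.92-fold higher (limma adjusted p = 0.00011, 0.00029 and 0.0011). Socs2 was 2.80-fold and Pim1 2.65-fold higher, and Socs1 2.38-fold (limma adjusted p = 0.0058, 0.00057 and 0.0035). The Socs1 difference kept its size of 1.25 with a floor at the 20th percentile but did not pass (limma adjusted p = 0.085), and at the 60th percentile it was 0.33 (limma adjusted p = 0.15). Bcl6 was 8.05-fold lower (limma adjusted p = 0.00014), and its dimmer probe set, below the floor in every IL-15 NK sample, had a log2 difference of -2.35 or beyond (limma adjusted p = 0.0025). That probe set could enter only through splenocyte chips above the floor, and its error takes no spread from the IL-15 NK arrays.

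The probe sets of Pim1 again disagreed, with a 2.65-fold higher signal for the brighter and a log2 difference of -1.73 for the dimmer, and their average of -0.16 did not pass. Those of Socs3 agreed in direction: the brightest differed by -1.12, short of the threshold (limma adjusted p = 0.19), while the others were lower by 1.87 and, as a bound with 1 IL-15 NK array below the floor, at least 2.80, and passed (limma adjusted p = 0.010 and 0.011 over 23116 probe sets). Pim3 was 2.19-fold higher with an adjusted p of 0.053 in limma, and its other tested probe set differed by 0.53 (limma adjusted p = 0.31). Of the 20 member probe sets 17 were tested, 8 were higher and 5 lower, where 42.4% of all probe sets passed, 17.1% higher and 25.2% lower.

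**Figure D4:**
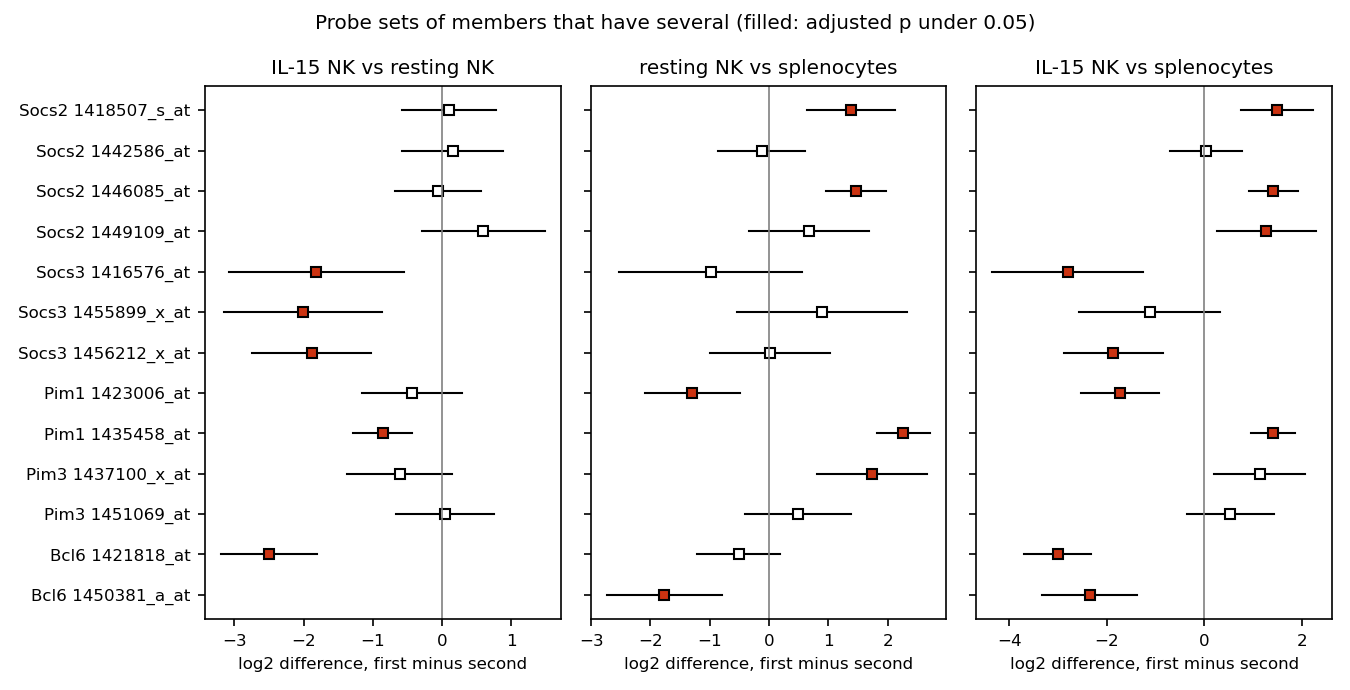
Difference of mean log2 signal for every tested probe set of the 5 members that have several, in the 3 comparisons, with 95% intervals from limma; filled squares passed at an adjusted p under 0.05 over all probe sets. The 3 Socs3 probe sets lie on the same side in both comparisons with IL-15 NK cells, whereas the 2 of Pim1 lie on opposite sides of zero against splenocytes.

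By group means the members fell into several orders. Cish and Pim2 ran from splenocytes through resting NK, not separable from them by the test, to IL-15 NK cells. Osm rose in the same order, with resting NK cells separable from splenocytes but not from IL-15 NK cells. Socs1 ran from resting NK through splenocytes to IL-15 NK cells, the first 2 not separable. Socs2 was lowest in splenocytes, with both NK groups above and not separable. Pim1, by its brighter probe set, and Pim3 ran from splenocytes through IL-15 NK to resting NK cells; for Pim3 neither neighbouring step passed. Bcl6 and Socs3 were lowest in IL-15 NK cells. For Bcl6, by its brighter probe set, the 2 higher groups were not separable. For Socs3, by its brightest probe set, neither neighbouring step passed. For Socs3 and Pim3 the error of each step against splenocytes included the widely spread resting arrays.

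The genes most like each member over the 10 arrays were named by Pearson correlation of log2 signal, as a description, among 12572 genes; the arrays share groups and amplification. Socs3 was most like Dusp1, Jun and Dusp2 (r = 0.97, 0.95 and 0.95), which are immediate-early genes, and Pim3 was most like Nr4a2, another of them (r = 0.98). For Cish the first were E2f3 and Fndc3a (r = 0.99 each), for Pim2 Mogs and Nop9 (0.99 each), and for Pim1 Ncald and Rlf (0.99 each). Bcl6 was most like Ifit3 and Dennd5a (0.99 each), Osm Pspc1 (0.99), Socs1 Wdr73 (0.97) and Socs2 Cgrrf1 (0.98).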

How the data were processed

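For each array the authors deposited linear signal intensity values, 1 per probe set. The submitters' processing notes name GCOS 1.4, and how probes were summarised is not given in the sources used here. Trimmed means (2% off each end) were 1500.0 on every array, so no further scaling was applied; such scaling hides changes in total RNA. Signals under the floor, the median over arrays of each array's 40th percentile, were raised to it before taking log2. Each gene was read from its probe set with the highest mean signal. A gene entered a comparison if 3 or more of its arrays exceeded the floor. Tests used limma 3.58.1 under R 4.3.3 (lmFit, eBayes with trend, 2-sided, Benjamini-Hochberg over all genes), over the 6 NK arrays or, against splenocytes, over all 3 groups. Splenocyte chips were averaged in pairs under each of 3 possible pairings, and the largest p was kept. Folds are ratios of geometric means. The NK arrays are biological replicates per the design text, and their number limits the precision. The fits were run on simulated data with independent arrays and the same spread in each group. These data do not mimic splenocyte chips that share a sample or the wider spread of resting arrays. The named genes are all members, up to 5 passing genes with the largest differences per list (the 2 brightest if fewer than 2 pass) and the 3 most similar genes; part of them is named. Members and lists were chosen with earlier results of these data known. Alternatives covered the floor, the filter, scaling, probe sets, the trend, chips as separate samples, arrays left out and a replicate block. Genes whose probe sets name several genes, such as Il2rg, are not analysed here. Promoter sequences are from RefSeq.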

Additional observations from a re-analysis of the deposited data

Results flagged for a closer look

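Among the 9 members, the Socs3 signal of 1 splenocyte chip stood apart from the other 3. Chip 2 gave 2811 units, below the 3251 to 3340 of the others, and its gap to the nearest was 0.844 of the whole range of log2 signals; this exceeds Dixon's 95% critical value for 4 values. Chance flags about 1 in 20 groups of 4 independent values. These chips are 2 biological samples with 2 chips each, so that rate need not hold here.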

How the results depend on the processing

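Over the 3 comparisons, 439 of 473 values of single members under an alternative kept their direction and their side of the threshold. Of the rest, 11 lost the call, 16 gained one and 7 turned sign. Members short of the threshold under both settings count as kept if their sign held. Settings that alter only the variance, the filter or a group outside the comparison could not change a direction. The share is thus not a measure of robustness. Cish, Pim2 and Bcl6 kept their call in IL-15 NK against resting NK cells under all 16 alternatives. The design text speaks of pairs of NK samples without saying whether equal numbers mark the same animals, so pairing was not settled. Deviations of same-numbered arrays correlated at 0.09, 0.27 and 0.06, and resting replicate 3 correlated best with IL-15 NK replicate 1, at 0.14. The fit with the replicate block gave 3421 changed genes and 7 changed members, Osm added (limma adjusted p = 0.022) and no other member's call changed. Quantile normalization moved the median difference of all genes from -0.06 to 0.05 in resting NK against splenocytes and from -0.10 to 0.11 in IL-15 NK against splenocytes. Members changed numbered 4 to 7, 4 to 5 and 7 to 9 when single arrays were left out, in the order of the comparisons, and genes changed 1963 to 3241, 4441 to 5188 and 4616 to 5943. With any single IL-15 NK array left out, Socs1 could not be tested in the first comparison, and those counts are of 8 members. The 3003 genes changed in IL-15 NK against resting NK cells were 1646 with every gene tested, where dim genes enter the variance trend and the adjustment. Signs turned for Socs2, which did not pass, from 0.11 to a range of -0.12 to 0.26 without single arrays and to -0.080 with resting replicate 3 alone. In that setting Pim3 went to 0.34 against IL-15 NK cells and Socs3 to -0.63 against splenocytes. With probe sets averaged, Socs3 in resting NK against splenocytes was -0.026 and Pim1 in IL-15 NK against splenocytes -0.16; the cause was not tested. Signals below the floor limit what can be said of Socs1 at rest.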
